A study of Mus musculus with 35 samples.

Results

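The frontonasal prominence (FNP) was compared with the maxillary prominence (MXP), which are neighbouring outgrowths of the embryonic mouse face, through 11 bulk RNA-seq libraries out of 35 in the series. The libraries were taken by their labels: 6 of FNP and 5 of MXP, all from wild-type CD1 embryos, an outbred strain, at embryonic day 11.5. No allele was altered and no agent was given. The 24 libraries of other tissues were used in the common estimate of spread, and the 6 libraries of the mandibular prominence (MNP) are given beside FNP and MXP where they show where a gene is otherwise expressed. Each library held RNA from tissue pooled over several embryos, so that single embryos, their sexes and their exact stages were not resolved. Replicate 4 of MXP was not analysed here.

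The upper face forms where the FNP meets the paired MXP around the nasal pits. Both prominences are filled mainly by neural crest-derived mesenchyme, which carries no Hox code in this region, and are covered by ectoderm. The FNP surrounds the nasal pit, whose epithelium arises from the olfactory placode and gives rise to olfactory neurons, and it overlies the forebrain. The MXP belongs to the upper, proximal part of the first pharyngeal arch, whose lower part is the MNP, and it forms the cheek, the side of the upper lip and the secondary palate. Alx factors are known for patterning frontonasal mesenchyme, and Dlx, Lhx and Barx factors for patterning arch mesenchyme.

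Levels are given in FPKM, sequenced fragments scaled by transcript length and by library size, as the authors estimated them per transcript and as summed here per gene symbol. Of the 13934 genes that reached 1 FPKM on average in at least 1 of the tissues, 213 were higher in FNP than in MXP, 1.53% of those tested, and 104 were lower, 0.746% of those tested. List members that passed this filter are called measured below, while the summed level of a list also takes in its members under the filter. In either direction 317 genes were called, 2.28% of those tested. A gene was called at a Benjamini-Hochberg adjusted p under 0.05 in limma and a fold change of at least 2, both computed from log2(FPKM + 1), so the folds of genes at low levels are compressed. The median log2 fold change over all tested genes was 0.05, and all fold changes below are FNP minus MXP on this scale unless they are named as ratios of mean FPKM. The FNP and MXP libraries did not overlap for 775 genes that were higher in FNP (5.56% of those tested) and for 180 that were lower (1.29%), and of the called genes 177 and 77 had no overlap. The split of calls leaned towards FNP, with 67.2% of calls higher there, and under quantile normalization it was 55.9%, from 162 higher and 128 lower genes. Within the replicates sequenced in separate runs, 1 to 3, 199 genes were higher and 79 lower, and within replicates 4 to 6, which shared a run and hold 2 MXP libraries, 71 were higher and 37 lower.

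Several libraries stood apart in ways that touch the results. Genes of the ventral and general forebrain were high in FNP replicates 4 and 5 and in MXP replicate 5. Nkx2-1, a factor of the ventral forebrain, had 44.7 FPKM in FNP replicate 4, 15.0 FPKM in FNP replicate 5 and 7.92 FPKM in MXP replicate 5, against at most 1.12 FPKM in the other 8 libraries. Sox1, a neural progenitor factor, had 12.9, 11.02 and 2.47 FPKM in the same libraries and at most 0.488 FPKM elsewhere. The summed level of the 14 forebrain progenitor markers ranged from 20.2 to 178.1 FPKM in FNP (median 32.8) and from 19.2 to 52.1 FPKM in MXP (median 25.6), and 0 of the 14 was called. MXP replicate 1 held 7.05 FPKM of Hand2 and 2.23 FPKM of Hand1, factors of the lower arch, for which the other 10 libraries had at most 0.41 and 0.0304 FPKM. MXP replicates 1 and 5 were low against MXP replicates 2, 3 and 6 in Pax1, Tbx15 and Hey2, as given below, and FNP replicates 4 and 5 were the lowest FNP libraries in Hey2. Pearson's r between libraries over the tested genes was 0.9485 to 0.9835 within FNP, 0.9642 to 0.9777 within MXP and 0.9339 to 0.977 between them, so the whole profiles overlapped. The median ratio of coverage to FPKM, over the longer transcripts with signal, was 2.70 to 3.81 in FNP and 3.25 to 3.97 in MXP. The deposited values hold no counts, so no counting interval is given. The transcript AK204943 took 26.2% of all FPKM in FNP replicate 1 and 14.2% in MXP replicate 1, against at most 7.22% for any gene in the other libraries. In such bulk tissue, fewer cells of a type and less RNA per cell cannot be told apart.

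**Figure D1:**
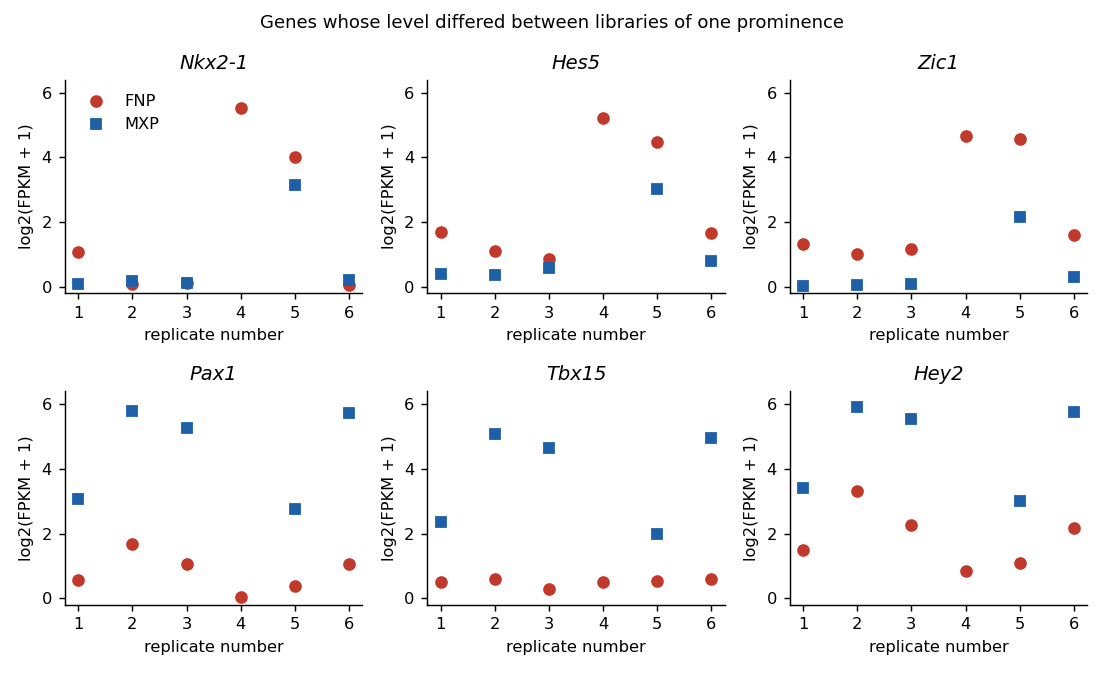
Levels of 6 genes as log2(FPKM + 1) by replicate number, with FNP as red circles and MXP as blue squares; replicates 1, 2 and 3 were each sequenced in another run and the rest in 1 run. Nkx2-1, Hes5 and Zic1 were high in FNP replicates 4 and 5 and in MXP replicate 5, and Pax1, Tbx15 and Hey2 were lower in MXP replicates 1 and 5 than in MXP replicates 2, 3 and 6.

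The sequences at the start sites of 4 genes on which the comparison turns are shown first, as RefSeq gives them for GRCm38.p6 (mm10). Each window runs from 250 bases before to 50 bases after the start, 5′ to 3′ on the gene's strand. Barx1, Lhx8 and Foxl2 were among the 12 leading genes lower in FNP and Fezf1 among the 12 leading higher ones, and the windows of Lhx8 and Foxl2 cover most of the gap to a noncoding neighbour that moved with each of them. Each window was searched on both strands for 5 motifs, which are written here without overlap between them: the TATA box as TATAAA, the box named for CCAAT, the GC box bound by Sp proteins as GGGCGG, a homeodomain core as TAATTA, and a site of Tcf and Lef proteins as CTTTGAT. Capitals mark the matches.
Foxl2, chr9:98955357-98955656, plus strand: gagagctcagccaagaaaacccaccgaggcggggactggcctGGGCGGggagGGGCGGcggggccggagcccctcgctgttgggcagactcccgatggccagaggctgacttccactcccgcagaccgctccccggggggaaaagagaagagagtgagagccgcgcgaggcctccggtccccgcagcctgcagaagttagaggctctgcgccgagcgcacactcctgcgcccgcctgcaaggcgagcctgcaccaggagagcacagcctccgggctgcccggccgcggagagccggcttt
Lhx8, chr3:154330511-154330810, minus strand: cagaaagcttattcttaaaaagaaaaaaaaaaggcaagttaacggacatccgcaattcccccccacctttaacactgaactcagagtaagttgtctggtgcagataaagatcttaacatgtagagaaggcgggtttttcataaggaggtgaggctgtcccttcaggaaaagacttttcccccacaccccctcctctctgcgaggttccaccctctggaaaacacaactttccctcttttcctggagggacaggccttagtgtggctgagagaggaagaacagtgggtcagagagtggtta
Barx1, chr13:48662786-48663085, plus strand: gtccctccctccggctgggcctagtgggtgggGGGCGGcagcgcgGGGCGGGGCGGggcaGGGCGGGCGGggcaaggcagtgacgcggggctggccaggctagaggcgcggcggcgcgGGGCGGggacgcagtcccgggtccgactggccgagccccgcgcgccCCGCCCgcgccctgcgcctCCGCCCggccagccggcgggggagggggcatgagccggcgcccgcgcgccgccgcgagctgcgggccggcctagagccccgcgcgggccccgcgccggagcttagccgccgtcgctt
Fezf1, chr6:23248215-23248514, minus strand: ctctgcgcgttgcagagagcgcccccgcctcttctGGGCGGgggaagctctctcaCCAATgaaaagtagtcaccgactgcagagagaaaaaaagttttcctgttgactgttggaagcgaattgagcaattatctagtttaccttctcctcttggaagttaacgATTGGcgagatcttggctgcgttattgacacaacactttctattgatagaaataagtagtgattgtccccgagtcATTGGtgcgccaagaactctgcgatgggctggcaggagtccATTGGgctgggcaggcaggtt

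The 4 windows differ in base composition. That of Barx1 holds 50 CpG dinucleotides at 84.7% G and C and that of Foxl2 27 at 71.3%, while that of Fezf1 holds 13 at 50% and that of Lhx8 4 at 47%; the median over all 32851 windows of the table is 7. GC boxes were found in the windows of Barx1, Foxl2 and Fezf1, and CCAAT boxes in that of Fezf1 alone. A GC box stands in 35.7% of all windows, in 49% of the 196 windows of genes higher in FNP and in 57.5% of the 87 windows of lower genes, against 63.5% of the windows of all tested genes. None of the 4 windows has the homeodomain core, which stands in 6.63% of the windows of genes higher in FNP and in 3.45% of those of lower genes, against 2.58% of those of all tested genes and 5.29% of all windows. The Tcf and Lef site stands in 4.08% of the windows of higher and 3.45% of those of lower genes, against 2.46% of those of tested genes and 3.73% of all windows. The TATA box stands in 11.2% of the windows of higher and 11.5% of those of lower genes, against 7.07% of those of tested genes and 13.6% of all windows, so that the direction depends on the windows compared with. These shares are descriptions over windows, and several windows may belong to 1 gene. Of the 110 genes named by rule, 74 have a window in the table; Alx1 is among those named only.

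Frontonasal mesenchyme factors were among the genes higher in FNP. Alx1, a paired-type homeodomain factor (mm10, chr10:103007847-103028777), was abundant in both, with 83.2 to 144 FPKM in FNP (median 126) and 26.6 to 36.1 FPKM in MXP (median 31.4), without overlap (log2 fold change 1.90 ± 0.48 SE, limma adjusted p = 0.010). Its call was lost with a pseudocount of 0.1, in replicates 1 to 3 alone, in replicates 4 to 6 alone and in the test against a fold of 1.5. Alx4, a paired-type factor of the same family, had 51.5 to 64.2 FPKM in FNP and 27.6 to 45.5 FPKM in MXP, without overlap, and did not pass the test (log2 fold change 0.68, adjusted p = 0.56 in limma). The SE here and below rests on the spread within all 6 tissues of the series.

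Of the 10 measured frontonasal mesenchyme factors, 5 rose in FNP, 0 fell and 5 did not pass the test, with a median log2 fold change of 1.26 against 0.05 over all tested genes. Besides Alx1, Pax7, Zic1 and Zic2 were among those that rose. Pax7, a paired-box factor also known from muscle progenitors, had 2.21 to 3.91 FPKM in FNP (median 2.91) and 0.0788 to 0.471 FPKM in MXP (median 0.203), a low but separate level (log2 fold change 1.68 ± 0.23 SE). Zic1, a zinc finger factor of neural crest and of dorsal brain, had 24.3 and 22.9 FPKM in FNP replicates 4 and 5, against 1.04 to 2.03 FPKM in the other 4 FNP libraries and 0.0188 to 0.230 FPKM in MXP replicates 1, 2, 3 and 6, with 3.45 FPKM in MXP replicate 5. The libraries with the most Zic1 were thus those with the brain genes; whether that RNA accounts for Zic1 was not tested. Its log2 fold change was 1.87 with all libraries and 1.16 (adjusted p = 0.0041 in limma) without FNP replicates 4 and 5 and MXP replicate 5, and leaving out MXP replicate 2, MXP replicate 3, FNP replicate 4 or FNP replicate 5 alone ended the call (adjusted p up to 0.063 in limma). Zic2, a factor of the same family, had 9.08 and 9.59 FPKM in FNP replicates 4 and 5, against 0.840 to 2.55 FPKM in the other FNP libraries, and its log2 fold change was 1.10 without the same 3 libraries, against 1.67 with all. Pax3, which marks crest of both prominences, had 9.28 to 14.2 FPKM in FNP and 9.77 to 25.1 FPKM in MXP and did not pass the test.

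Forkhead factors parted in both directions. Foxd1 (chr13:98354245-98356705), a forkhead factor of several mesenchymes, had 29.6 to 56.0 FPKM in FNP (median 35.5), against 3.45, 3.09, 1.17, 5.28 and 1.5996 FPKM in MXP (log2 fold change 3.43 ± 0.36 SE, limma adjusted p = 1.8e-08). Foxc1, a forkhead factor of head mesenchyme, had 14.4 to 30.7 FPKM in FNP and 0.891 to 3.57 FPKM in MXP (log2 fold change 2.94). The related Foxd2 averaged 8.68 FPKM in FNP and 1.62 FPKM in MXP, and Foxf1, a target of Hedgehog signalling in several tissues, 18.8 FPKM in FNP and 6.11 FPKM in MXP; both rose (log2 fold changes 1.89 and 1.53). Foxl2 went the other way, as described below. Gata2, a zinc finger factor, had 25.7 to 55.0 FPKM in FNP and 1.65 to 4.88 FPKM in MXP (log2 fold change 3.23 ± 0.32 SE), and Crym, a crystallin family protein that binds thyroid hormone, had 94.7 to 364 FPKM in FNP and 12.4 to 37.8 FPKM in MXP (log2 fold change 3.03 ± 0.54 SE). The level of Crym varied widely within FNP, and its libraries still did not overlap with those of MXP.

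**Figure D2:**
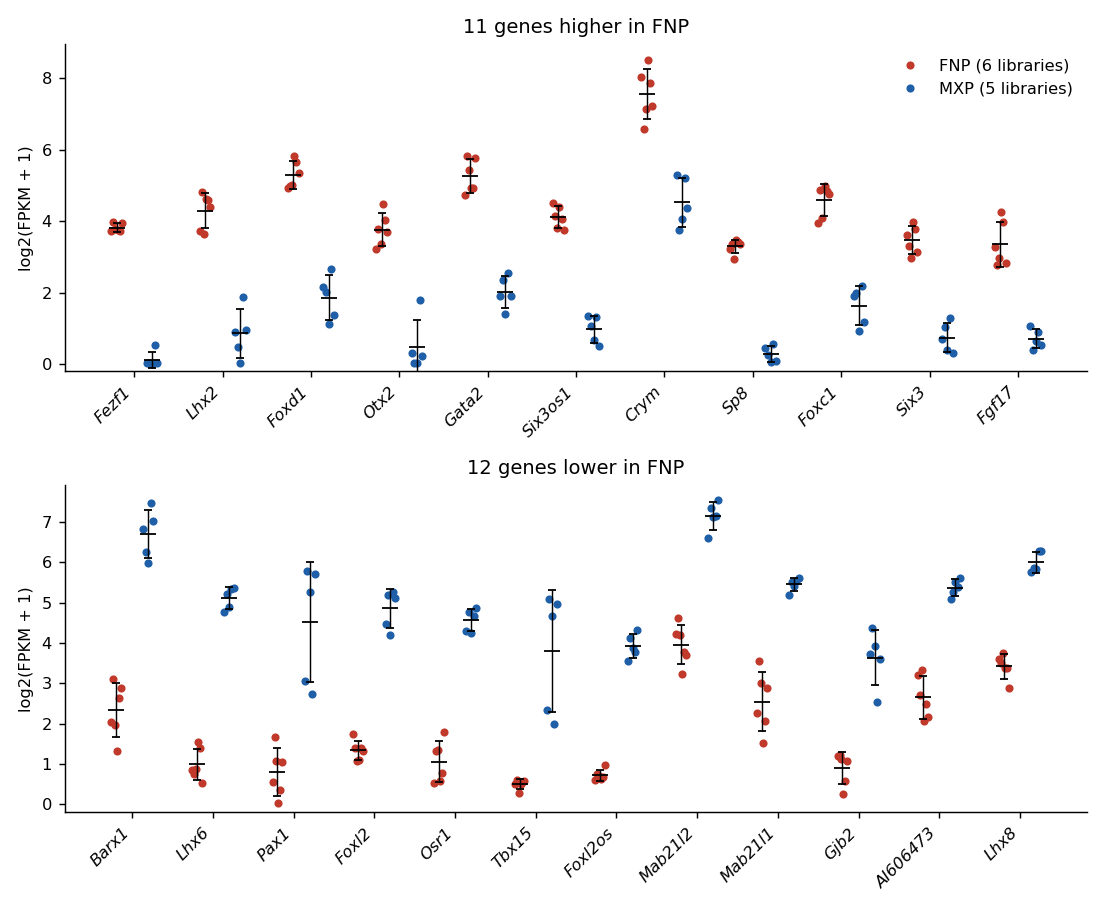
Levels as log2(FPKM + 1) of 11 genes higher and 12 genes lower in FNP, taken from the 12 called genes of largest fold change in each direction whose libraries did not overlap, with FNP (red, 6 libraries) left of MXP (blue, 5 libraries); bars give the mean and SD. Fezf1 had the largest gap among the higher genes shown and Barx1 and Lhx6 among the lower ones, and the MXP libraries of Pax1 and Tbx15 fell into high and low values.

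Genes of the nasal placode and pit epithelium formed the group with the most calls. Of 22 measured members, 15 rose in FNP, 0 fell and 7 did not pass the test, with a median log2 fold change of 1.68. Fezf1 (chr6:23245047-23248264, window above), a zinc finger factor of olfactory neurons, had 12.2, 14.8, 12.8, 12.6, 12.2 and 14.5 FPKM in FNP, against 0.0229, 0.0232, 0, 0.452 and 0.0259 FPKM in MXP (log2 fold change 3.69 ± 0.23 SE, limma adjusted p = 2.0e-13). It was near 0 outside FNP among the facial tissues, with 0.0223 FPKM on average in MNP. Sp8, a zinc finger factor of the nasal pit rim, had 6.68 to 10.04 FPKM in FNP and 0.0432 to 0.488 FPKM in MXP (log2 fold change 3.01 ± 0.20 SE). The LIM factor Lhx2 and the head factor Otx2 rose as well, with log2 fold changes of 3.43 and 3.27, and the eye and forebrain factor Six3 with 2.72. Eya2, a coactivator of placode development, averaged 27.1 FPKM in FNP and 7.37 FPKM in MXP, and Pax6, a placode and eye factor, 3.33 FPKM in FNP and 0.414 FPKM in MXP.

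Many members of the placode list are also expressed in the forebrain, and the libraries with brain genes had the highest levels of some. Otx2 had 21.2 and 15.4 FPKM in FNP replicates 4 and 5, against 8.27 to 12.7 FPKM in the other FNP libraries, and 2.49 FPKM in MXP replicate 5, against at most 0.246 FPKM in the other MXP libraries. Without FNP replicates 4 and 5 and MXP replicate 5, a set chosen after seeing the data, 12 of the placode members were higher in FNP in place of 15, and 233 and 96 genes were called in place of 213 and 104. Fezf1 was highest in FNP replicates 2 and 6, while Sp8 and Pax6 were highest in FNP replicates 4 and 5. The part of brain tissue in the placode list as a whole was not tested.

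Genes of the olfactory neuron lineage followed. Of 23 measured members 11 rose in FNP, 0 fell and 12 did not pass the test (median log2 fold change 0.97). The factors of early neurons in this group included Neurog1, a proneural factor, Neurod1, Nhlh1 and Nhlh2, helix-loop-helix factors of differentiating neurons, and Insm1. Nhlh1 had 6.42, 10.9, 5.83, 4.87, 4.70 and 8.55 FPKM in FNP, against 3.35, 0.0850, 0.0691, 0.402 and 0.0462 FPKM in MXP (log2 fold change 2.35 ± 0.29 SE, limma adjusted p = 5.0e-07). FNP replicates 2 and 6 were highest, and MXP replicate 1 was the only MXP library above 1 FPKM. Neurod1 was likewise highest in those libraries, with 9.09 and 6.94 FPKM in FNP replicates 2 and 6 and 2.07 FPKM in MXP replicate 1. Elavl3 and Elavl4, RNA-binding proteins of neurons, rose too (log2 fold changes 2.15 and 1.61), as did the tubulin regulator Stmn3 and the filament protein Ina. Of 14 measured neuron markers, 4 rose (Elavl3, Elavl4, Stmn3 and Ina) and 0 fell, and their summed level was 141.2 to 189.8 FPKM in FNP and 94.0 to 139.6 FPKM in MXP. Of the 6 measured markers of cranial sensory ganglia, which lie near the MXP, 0 was called in limma. Of these, 3 had an unadjusted p under 0.05, and the median log2 fold change was 0.34. Their summed levels were 39.9 to 76.4 FPKM in FNP and 38.2 to 66.4 FPKM in MXP. Tubb3, the neuronal tubulin that the study names among its ciliary genes, had 56.6 to 80.1 FPKM in FNP and 24.2 to 48.5 FPKM in MXP; its libraries did not overlap and it did not pass the test (log2 fold change 0.72, adjusted p = 0.17 in limma).

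Genes lower in FNP were led by factors of the first arch. Barx1 (chr13:48663036-48666507, window above), a homeodomain factor of proximal arch and tooth mesenchyme, had 3.13, 7.63, 2.93, 1.5, 5.25 and 6.37 FPKM in FNP, against 112, 75.5, 62.1, 174 and 128 FPKM in MXP. The lowest MXP library lay several-fold above the highest FNP library, and mean FPKM was 24.7-fold higher in MXP (log2 fold change -4.37 ± 0.34 SE, limma adjusted p = 2.9e-11). Lhx6 (chr2:36081953-36105408), a LIM factor of arch mesenchyme, had 0.447 to 1.91 FPKM in FNP (median 0.823), against 26.2, 36.2, 28.8, 39.5 and 40.4 FPKM in MXP (log2 fold change -4.13 ± 0.39 SE, limma adjusted p = 2.0e-09). Its relative Lhx8 had 6.34 to 12.4 FPKM in FNP and 53.1 to 77.2 FPKM in MXP (log2 fold change -2.59). Dlx1, a Distal-less factor of the first arch, had 0.909 to 6.08 FPKM in FNP (median 1.20) and 11.8 to 19.4 FPKM in MXP (median 13.1), with FNP replicates 4 and 5 highest in FNP (log2 fold change -2.45). Dlx1 averaged 14.7 FPKM in MXP and 16.2 FPKM in MNP, so both arch prominences were high. Its neighbour Dlx2 had 6.13 to 16.5 FPKM in FNP and 16.2 to 41.4 FPKM in MXP, and did not pass the test over all tissues (log2 fold change -1.43, adjusted p = 0.13 in limma). It did pass when only the 11 libraries were fitted (limma adjusted p = 0.0053), a fit that ended 8 calls of other genes described here. Dlx2 was also called with the 17 facial libraries alone and in replicates 1 to 3 alone.

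The arch list as a whole moved both ways. Of 30 measured maxillary and first arch factors 8 fell in FNP, 4 rose and 18 did not pass the test, with a median log2 fold change of 0.04. The 8 were Barx1, Lhx6, Foxl2, Osr1, Lhx8, Dlx1, Osr2 and Prrx1, and the 4 were Foxd1, Foxd2, Foxf1 and Tbx22. Osr1, a zinc finger factor of palate and arch mesenchyme, had 0.448 to 2.47 FPKM in FNP and 18.0 to 28.3 FPKM in MXP (log2 fold change -3.51 ± 0.28 SE). Prrx1, a paired-type factor that marks cranial mesenchyme at large, had 35.9 to 77.8 FPKM in FNP (median 52.7), against 143, 234, 207, 208 and 229 FPKM in MXP (log2 fold change -1.93 ± 0.29 SE, limma adjusted p = 1.6e-05). Twist2, a basic helix-loop-helix factor also on the mesenchyme marker list, had 8.43 to 16.0 FPKM in FNP and 40.9 to 86.5 FPKM in MXP (log2 fold change -2.31). Of the 12 mesenchyme markers these were the 2 that fell, 0 rose, and the summed level of all 12 overlapped, at 680.0 to 997.0 FPKM in FNP and 721.9 to 1452 FPKM in MXP. Msx1, the arch and frontonasal factor, was not called and overlapped.

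Foxl2 (chr9:98955607-98958126), a forkhead factor known from eyelid and ovary, set MXP apart from both other prominences. It had 2.33, 1.65, 1.10, 1.16, 1.64 and 1.48 FPKM in FNP, 21.3, 35.6, 17.5, 37.4 and 33.9 FPKM in MXP, and 0.51 to 2.45 FPKM in MNP. FNP fell against MXP (log2 fold change -3.52 ± 0.31 SE, limma adjusted p = 6.4e-10), and MXP was higher than MNP (log2 fold change 3.56, adjusted p = 1.0e-09 in limma). Its noncoding neighbour Foxl2os (chr9:98949155-98955310) had 0.515 to 0.982 FPKM in FNP and 10.7 to 19.0 FPKM in MXP (log2 fold change -3.20 ± 0.20 SE). The annotated loci have opposite start sites with 296 bases between them and do not overlap. The noncoding AI606473 lies next to Lhx8, with 260 bases between them. AI606473 had 3.15 to 9.02 FPKM in FNP and 32.8 to 47.9 FPKM in MXP (log2 fold change -2.72 ± 0.34 SE). Six3 and Six3os1 were both higher in FNP (log2 fold changes 2.72 and 3.13), but their annotated loci overlap by 4789 bases, and since the counting of strands is not given in the sources used here their reads cannot be told apart with certainty. Among the 24 leading genes, 3 were such noncoding neighbours of another leading gene.

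**Figure D3:**
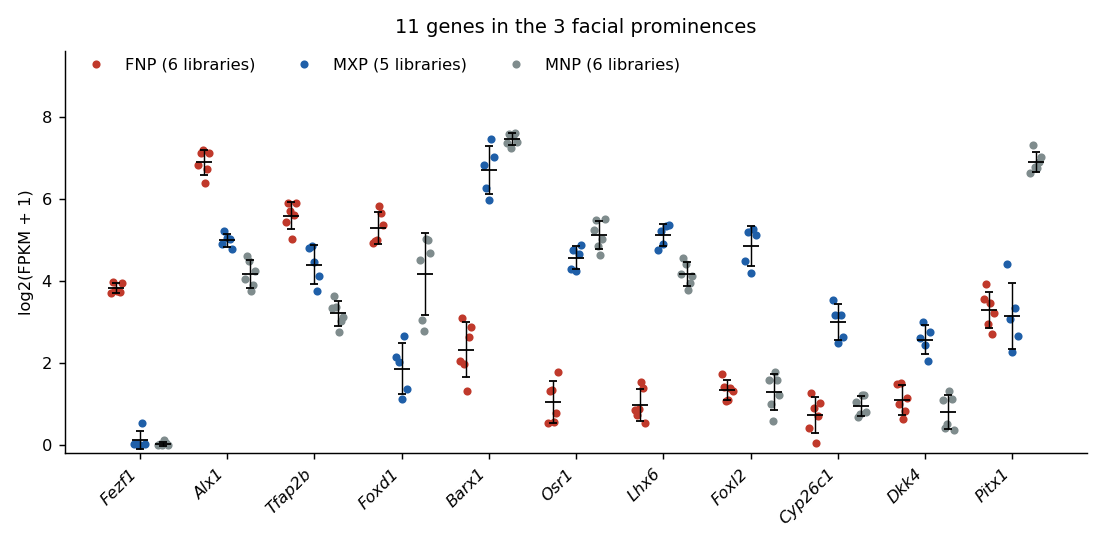
Levels of 11 genes as log2(FPKM + 1) in FNP (red, 6 libraries), MXP (blue, 5 libraries) and MNP (grey, 6 libraries), with the mean and SD. Fezf1 was near 0 outside FNP, Foxd1 was lowest in MXP, Barx1, Osr1 and Lhx6 were lowest in FNP, and Foxl2, Cyp26c1 and Dkk4 were highest in MXP.

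Set beside the MNP, the genes that part FNP from MXP took several forms. Between FNP and MNP 373 genes were called (2.68% of those tested) and between MXP and MNP 144 (1.03%); these comparisons share their libraries with the one described here, so each comparison is given by its own values and no overlap of calls is drawn. Barx1 averaged 4.47 FPKM in FNP, 110 FPKM in MXP and 175 FPKM in MNP, and Osr1 1.19, 23.0 and 34.7 FPKM in the same order, so both arch prominences were high. Mab21l1 and Mab21l2, Mab-21 family proteins needed for eye development, had 5.49 and 15.2 FPKM in FNP, 42.9 and 144 FPKM in MXP, and 36.9 and 104 FPKM in MNP. Foxd1 averaged 39.5 FPKM in FNP, 2.92 FPKM in MXP and 20.4 FPKM in MNP, so that MXP was the lowest of the 3 (for MXP against MNP log2 fold change -2.31, called). Tfap2b, an AP-2 factor of crest, was graded, with 48.4 FPKM in FNP, 20.9 FPKM in MXP and 8.46 FPKM in MNP; its call between FNP and MXP was lost without MXP replicate 5 or 6 (adjusted p up to 0.074 in limma). Dlx6, a factor of the lower arch, averaged 11.4 FPKM in FNP, 4.25 FPKM in MXP and 44.7 FPKM in MNP, and lost its call between FNP and MXP without any of 7 single libraries (adjusted p up to 0.11 in limma). Pitx1, which marks the lower arch and oral ectoderm, had 9.23 FPKM in FNP, 9.21 FPKM in MXP and 119.8 FPKM in MNP, so that FNP and MXP overlapped.

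Iroquois factors, homeodomain proteins encoded in clusters, were mostly lower in FNP. Of 6 measured members 4 fell, 0 rose and 2 did not pass the test, and the median log2 fold change was -1.39. Irx5 (chr8:92357796-92361456) had 6.75, 14.0, 9.92, 4.08, 6.64 and 16.2 FPKM in FNP, against 28.7, 42.2, 35.9, 39.3 and 44.1 FPKM in MXP (log2 fold change -1.99 ± 0.37 SE, limma adjusted p = 0.00041). Irx6, from the same cluster, had at most 0.561 FPKM in FNP and 1.73 to 2.62 FPKM in MXP (log2 fold change -1.42 ± 0.13 SE), and Irx4, from the other cluster, had 0.426 to 0.979 FPKM in FNP and 2.38 to 5.32 FPKM in MXP (log2 fold change -1.46). Irx3 had 14.2 to 37.0 FPKM in FNP and 44.4 to 65.4 FPKM in MXP with no overlap, but its call was at the threshold (log2 fold change -1.36, adjusted p = 0.049 in limma) and was lost when any library but FNP replicate 6 was left out (adjusted p up to 0.12 in limma). Irx1 and Irx2 had log2 fold changes of -0.76 and -1.01 and did not pass the test. The summed level of all 6 was 20.4 to 58.1 FPKM in FNP and 84.7 to 125.1 FPKM in MXP.

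Wnt signals are secreted lipid-modified ligands that stabilise beta-catenin or act through other branches, and several are made by the facial ectoderm. Of 16 measured Wnt ligands 5 fell in FNP, 0 rose and 11 did not pass the test (median log2 fold change -0.37). Wnt11, a ligand of the planar polarity branch, had 0.132 to 0.331 FPKM in FNP, against 3.28, 4.86, 3.59, 4.62 and 5.08 FPKM in MXP, and mean FPKM was 16.2-fold higher in MXP (log2 fold change -2.05 ± 0.17 SE, limma adjusted p = 2.0e-10). The others were Wnt7b, Wnt10b, Wnt3 and Wnt9b, ligands of surface ectoderm. Wnt10b had 1.03 to 2.51 FPKM in FNP and 2.73 to 9.91 FPKM in MXP (log2 fold change -1.43), and Wnt3 1.17 to 3.32 FPKM in FNP and 4.22 to 9.57 FPKM in MXP (log2 fold change -1.33). Wnt9b and Wnt3, which are neighbours on chromosome 11 with 24.4 kb between them, are both known from mutants with clefts of the lip. Wnt9b lost its call without FNP replicate 4 (log2 fold change -0.96 in place of -1.10). The summed level of the ligands overlapped, at 76.2 to 184.6 FPKM in FNP and 105.1 to 209.4 FPKM in MXP. Wnt5a, an abundant ligand that acts largely outside beta-catenin, had 40.2 to 136 FPKM in FNP and 32.3 to 86.2 FPKM in MXP and did not pass the test.

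Among 44 measured Wnt receptors, modulators and targets 5 fell and 3 rose, with a median log2 fold change of -0.01. Lef1 (chr3:131110471-131223331), a nuclear partner of beta-catenin and itself a target, had 15.9, 21.5, 17.5, 11.8, 15.2 and 17.6 FPKM in FNP, against 40.5, 137, 87.4, 41.5 and 126 FPKM in MXP (log2 fold change -2.15 ± 0.26 SE, limma adjusted p = 2.6e-07). MXP replicates 1 and 5 were the lower MXP libraries and still lay above every FNP library. Kremen2, a receptor for Dickkopf proteins, had 1.66 to 5.28 FPKM in FNP and 6.78 to 18.2 FPKM in MXP (log2 fold change -1.70). Dkk4, a Dickkopf inhibitor that Wnt signals induce in ectoderm, had 0.553 to 1.87 FPKM in FNP and 3.16 to 6.98 FPKM in MXP (log2 fold change -1.47), and only 0.299 to 1.48 FPKM in MNP. Axin2, a feedback inhibitor, had 13.5 to 20.3 FPKM in FNP and 31.2 to 45.2 FPKM in MXP, and in the fit with the replicate block its log2 fold change was -0.91 in place of -1.03 and under the fold threshold. Axin2 also fell short of that threshold without MXP replicate 6 or FNP replicate 4 (log2 fold change -0.96 at the least), and Rspo3, a secreted Wnt agonist, lost its call without MXP replicate 2, MXP replicate 6 or FNP replicate 4. The count of lower members was 3 in place of 5 without MXP replicate 6, without FNP replicate 4, and without FNP replicates 4 and 5 and MXP replicate 5, and 9 without MXP replicates 1 and 5. The higher members were Fzd9, a receptor, Sfrp1, a secreted Wnt binder, and Rspo1. Fzd9 had 1.19 to 3.23 FPKM in FNP and 0.293 to 0.538 FPKM in MXP (log2 fold change 1.20), and Sfrp1 and Rspo1 lay at the fold threshold (log2 fold changes 1.01 and 1.024) and each lost its call without any of 6 libraries, MXP replicates 2, 3 and 6 and FNP replicates 2, 3 and 6 (adjusted p up to 0.052 and 0.036 in limma).

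Other signalling lists gave small counts of calls, but most of their shares lay above the 2.28% called over all tested genes. The share of measured members called was 10.5% for retinoic acid and for Notch. It was 8.33% for Fgf ligands and 5.88% for Fgf receptors and feedback targets. For Bmp ligands it was 18.2%, and for Bmp receptors, antagonists and targets 12%, while Hedgehog had 0 called. Retinoic acid is made by retinaldehyde dehydrogenases and degraded by Cyp26 enzymes. Of 19 measured members of the pathway, Stra6 rose and Cyp26c1 fell in FNP. Cyp26c1 (chr19:37685680-37693307), a retinoic acid hydroxylase, had 0.336, 1.44, 0.879, 0.0449, 0.631 and 1.04 FPKM in FNP, 10.7, 7.95, 4.62, 7.95 and 5.2 FPKM in MXP, and 0.620 to 1.35 FPKM in MNP (log2 fold change -2.26 ± 0.16 SE, limma adjusted p = 4.3e-12 for FNP against MXP). Stra6, which takes up retinol from its carrier, had 22.6 to 34.7 FPKM in FNP and 6.66 to 17.7 FPKM in MXP (log2 fold change 1.27 ± 0.24 SE). Aldh1a3, the dehydrogenase of the nasal pit and counted with the placode list, had 6.50 to 16.0 FPKM in FNP and 2.26 to 7.64 FPKM in MXP; its call was at the threshold (log2 fold change 1.12, adjusted p = 0.045 in limma) and was lost without any of 8 single libraries (adjusted p up to 0.14 in limma), FNP replicates 5 and 6 and MXP replicate 2 being the exceptions. The retinoic acid binding protein Crabp1 was the most abundant member, with 525.5 to 1920 FPKM in FNP and 289.5 to 483.3 FPKM in MXP without overlap. It did not pass the test (log2 fold change 1.603 ± 0.60 SE, limma adjusted p = 0.14). Crabp1 did pass with replicate numbers as a block (log2 fold change 1.37, limma adjusted p = 0.036) and with runs as a block (limma adjusted p = 0.040). It was also called with the 11 libraries alone and with the 17 facial libraries alone.

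In Fgf signalling 1 of 12 measured ligands and 1 of 17 receptors and feedback targets was called. The receptors and feedback targets had a median log2 fold change of 0.59, with 11 at an unadjusted and 6 at an adjusted p under 0.05, and summed to 308.1 to 390.3 FPKM in FNP and 206.4 to 300.009 FPKM in MXP, without overlap. Fgf17, a ligand of the Fgf8 subfamily, had 5.85 to 18.2 FPKM in FNP (median 7.76) and 0.314 to 1.10 FPKM in MXP (median 0.572), 15.1-fold more in mean FPKM (log2 fold change 2.63 ± 0.28 SE, limma adjusted p = 2.4e-08), with FNP replicates 4 and 5 highest. Fgf8 itself had 8.83 to 41.8 FPKM in FNP and 6.23 to 23.4 FPKM in MXP, overlapped and did not pass the test (adjusted p = 0.38 in limma). Il17rd, a membrane inhibitor of Fgf signalling, rose to 17.2 to 21.5 FPKM in FNP, against 7.05 to 9.40 FPKM in MXP (log2 fold change 1.13 ± 0.20 SE). In the Notch list Mfng, a glycosyltransferase that modifies Notch, had 12.7 to 19.1 FPKM in FNP and 2.48 to 5.10 FPKM in MXP (log2 fold change 1.78). Hey2, a Notch-responsive repressor, had 1.79, 8.99, 3.81, 0.799, 1.11 and 3.53 FPKM in FNP, against 9.70, 58.8, 45.2, 7.004 and 53.1 FPKM in MXP (log2 fold change -2.86 ± 0.54 SE, limma adjusted p = 0.00047). MXP replicates 1 and 5 were low, and only MXP replicate 5 lay within the range of FNP, below FNP replicate 2. Without MXP replicates 1 and 5, and with all FNP libraries kept, the log2 fold change of Hey2 was -3.87.

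Bmp signalling gave 2 called ligands of 11 and 3 called members of 25 among receptors, antagonists and targets. Gdf6, a joint and skull ligand, rose (3.36 to 5.17 FPKM in FNP and 0.680 to 2.53 FPKM in MXP, log2 fold change 1.17), and Gdf10, a divergent Bmp relative, fell. Gdf10 had 0.0906 to 3.05 FPKM in FNP and 2.41, 13.2, 7.55, 2.12 and 18.6 FPKM in MXP, so that MXP replicates 1 and 5 overlapped with FNP replicate 2 (log2 fold change -2.07 ± 0.39 SE). The antagonist Nog had 2.77 to 6.04 FPKM in FNP and 0.803 to 2.38 FPKM in MXP, and the inhibitory helix-loop-helix factor Id4 10.3 to 33.9 FPKM in FNP and 4.31 to 9.70 FPKM in MXP. Both rose, but each lost its call without any of 4 single libraries (adjusted p up to 0.067 in limma for each), MXP replicates 1 and 3 and FNP replicate 4 for both, with FNP replicate 2 for Nog and FNP replicate 5 for Id4. Sostdc1, an ectodermal Bmp and Wnt antagonist, had 6.91 to 16.4 FPKM in FNP and 19.8 to 36.0 FPKM in MXP (log2 fold change -1.12), and came to -0.99 at the smallest without MXP replicate 1 or FNP replicate 4.

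Hedgehog signalling, which the FNP depends on through Shh from forebrain and ectoderm and which cilia transduce, gave no call. Of 21 measured members 0 was called in limma, with 4 at an unadjusted p under 0.05, 2 of them at an adjusted p under 0.05, and a median log2 fold change of 0.02. The 2 were Disp1, which releases Hedgehog ligands (log2 fold change -0.56, limma adjusted p = 0.0018), and the inhibitor Hhip (log2 fold change 0.39, limma adjusted p = 0.024), both short of the fold threshold. Shh had 1.32 to 11.97 FPKM in FNP and 0.877 to 2.96 FPKM in MXP, highest in FNP replicate 4. Its receptor and target Ptch1 had 21.6 to 37.6 FPKM in FNP and 18.1 to 42.7 FPKM in MXP, and the target factor Gli1 17.5 to 27.1 FPKM in FNP and 12.6 to 41.7 FPKM in MXP. Their libraries overlapped. The log2 fold changes were 0.50 ± 0.39, 0.36 ± 0.26 and 0.02 ± 0.30 (SE) for Shh, Ptch1 and Gli1, and the sign of that of Gli1 and Shh changed under other settings. With a pseudocount of 0.1 in place of 1, Hhip was called (log2 fold change 1.08). Nor was any of 32 measured Hox genes called (0 in limma, 1 at an unadjusted p under 0.05). That gene, Hoxb9, averaged 0.674 FPKM in FNP and 0.0418 FPKM in MXP and passed the adjusted p but not the fold threshold (log2 fold change 0.68, limma adjusted p = 2.9e-06). The summed level of the Hox genes was 1.05 to 11.9 FPKM in FNP (median 1.40) and 0.579 to 4.83 FPKM in MXP (median 1.56). The 11.9 FPKM was in FNP replicate 5 alone, against at most 1.72 FPKM in the other FNP libraries, and the 4.83 FPKM was in MXP replicate 2.

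**Figure D4:**
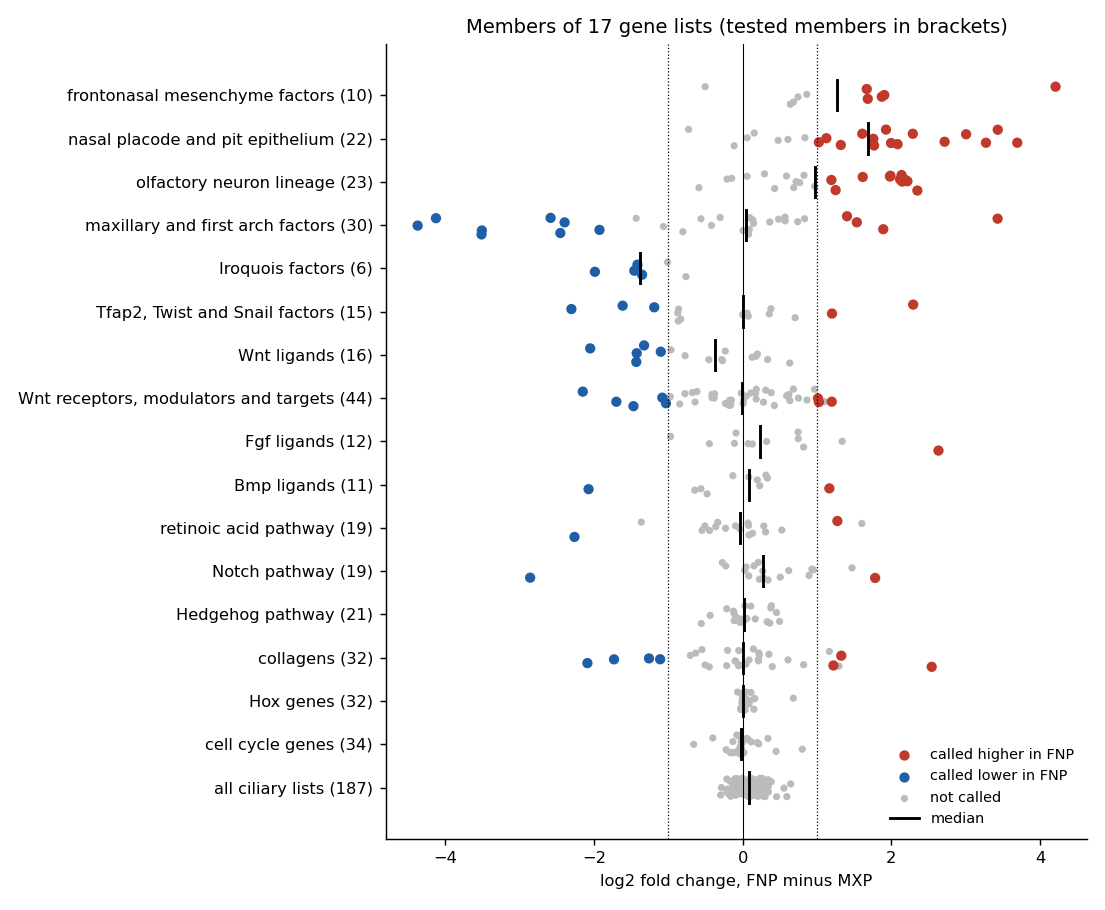
Each point is a measured member of 1 of 17 gene lists, placed by its log2 fold change, FNP minus MXP; red points were called higher in FNP, blue points lower, grey points were not called, and the black bar is the median of the list. The placode list had 15 of 22 members called higher, the Iroquois list 4 of 6 lower, and the lists of Hedgehog, Hox, cell cycle and ciliary genes had 0 called.

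Matrix and skeletal genes were called in both directions, and most were not called. Of 32 measured collagens 3 rose in FNP, 4 fell and 25 did not pass the test. Of those that rose, Col2a1, the main cartilage collagen, had 54.5 to 118 FPKM in FNP and 15.2 to 60.3 FPKM in MXP (log2 fold change 1.33), Col8a2, a network collagen, 7.73 to 22.4 FPKM in FNP and 0.957 to 2.04 FPKM in MXP (log2 fold change 2.54 ± 0.41 SE), and Col9a3, another cartilage chain, averaged 7.41 FPKM in FNP and 2.28 FPKM in MXP. Sox9, the factor that drives cartilage formation, had 32.3 to 66.5 FPKM in FNP and 3.40 to 18.6 FPKM in MXP (log2 fold change 2.29 ± 0.37 SE). Collagen VI chains fell in FNP: Col6a1 and Col6a2, neighbours on chromosome 10, had 1.11 to 8.21 and 2.45 to 14.1 FPKM in FNP and 7.68 to 35.2 and 10.8 to 46.7 FPKM in MXP, and Col6a3 fell with them (log2 fold changes -2.09, -1.73 and -1.26), as did the epidermal Col17a1. Of 19 measured skeletogenic genes Runx2, Postn and Barx2 fell and 16 did not pass the test. The bone factor Runx2 had 0.950 to 12.8 FPKM in FNP and 5.81 to 25.5 FPKM in MXP, and Postn, a matrix protein of periosteum, 2.27 to 24.0 FPKM in FNP and 27.0 to 79.4 FPKM in MXP (log2 fold changes -1.44 and -2.47). Several of these calls did not hold with each library left out in turn. Col2a1, Col9a3, Col6a2, Col6a3, Col17a1 and Runx2 each lost the call when 1 of 4 to 7 libraries was left out (adjusted p up to 0.18 in limma), most often MXP replicates 2, 3 and 6 and FNP replicate 4, and Col17a1 also with the replicate number as a block (log2 fold change -0.99). Without MXP replicates 1 and 5 together, and with all FNP libraries kept, the log2 fold changes of Col6a2 and Runx2 were -2.40 and -2.08.

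A set of mesenchymal genes was high in only some MXP libraries, and most of them split by the same replicate numbers in FNP and MNP. Pax1 (chr2:147364994-147393295), a paired-box factor of pharyngeal pouches and sclerotome, had 0.474, 2.21, 1.10, 0.0200, 0.288 and 1.07 FPKM in FNP, against 7.39, 53.7, 37.3, 5.69 and 51.6 FPKM in MXP (log2 fold change -3.72 ± 0.60 SE, limma adjusted p = 4.5e-05). Tbx15, a T-box factor of mesenchyme, had 0.223 to 0.511 FPKM in FNP and 4.09, 32.8, 24.2, 2.96 and 30.0 FPKM in MXP (log2 fold change -3.30 ± 0.51 SE). MXP replicates 2, 3 and 6 were the high ones in each, and MXP replicates 1 and 5 the low ones, yet all lay above FNP. The same split of MXP libraries was seen in Hey2, Gdf10, Lef1, Osr2, Col6a1 and Pam. In FNP, replicates 2, 3 and 6 were also the highest in Pax1, at 1.07 to 2.21 FPKM, against 0.0200 to 0.474 FPKM in FNP replicates 1, 4 and 5. The same held in FNP for Hey2, Gdf10, Lef1, Osr2, Col6a1 and Pam, but not for Tbx15. MNP replicates 2, 3 and 6 were the highest MNP libraries in Pax1, Tbx15, Hey2, Gdf10, Lef1, Col6a1 and Pam. Pax1 and Tbx15 were highest in MNP replicate 2, at 19.2 and 17.2 FPKM, and lowest in MNP replicate 4, at 0.407 and 0.644 FPKM. Without MXP replicates 1 and 5, a choice made after seeing the data, the log2 fold changes of Pax1 and Tbx15 were -4.79 and -4.39, and 235 genes were called higher and 152 lower. All FNP libraries stayed in that fit, FNP replicates 1, 4 and 5 with them, so it is unbalanced by replicate number.

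Surface epithelium markers were called in both directions, while the called crest glia markers were all lower in FNP. Of 19 measured surface epithelium markers 2 rose and 2 fell in FNP. Krt8 and Krt18, the paired keratins of simple epithelium, had 19.7 to 40.1 and 18.9 to 39.9 FPKM in FNP and 5.32 to 25.1 and 5.21 to 24.7 FPKM in MXP (log2 fold changes 1.39 and 1.46), while Krt14 and Krt15, keratins of stratified epithelium, had 3.54 to 22.6 and 1.38 to 6.51 FPKM in FNP and 16.2 to 68.6 and 2.87 to 20.6 FPKM in MXP (log2 fold changes -1.63 and -1.07). Their libraries overlapped, and the summed markers of the list overlapped (210.9 to 410.2 FPKM in FNP and 214.2 to 406.7 FPKM in MXP). The calls of Krt8 and Krt18 were each lost without any of 8 single libraries (adjusted p up to 0.18 in limma) and that of Krt15 without any of 9 (adjusted p up to 0.22 in limma) and in the fit with the replicate block (log2 fold change -0.997). Krt14 kept its call with each library left out in turn. It lost the call with a pseudocount of 0.1, with the 11 libraries fitted alone and without FNP replicates 4 and 5 together. The call of Krt14 was also lost in replicates 4 to 6 alone and in the test against a fold of 1.5. The gap junction gene Gjb2 fell to 0.198 to 1.32 FPKM in FNP, against 4.83 to 19.8 FPKM in MXP (log2 fold change -2.73 ± 0.37 SE), and its relative Gjb6, chosen after its values were seen, averaged 0.481 FPKM in FNP and 7.07 FPKM in MXP. Of 7 measured crest glia markers 3 fell, Foxd3 and Gfra3 among them, and 0 rose (median log2 fold change -0.91). Foxd3, a factor of early crest and glia, had 0.0987 to 0.780 FPKM in FNP and 1.91 to 4.14 FPKM in MXP (log2 fold change -1.62 ± 0.17 SE). Gfra3 fell short of the fold threshold without MXP replicate 2 or without MXP replicate 6. Snai2, a factor of crest migration, was lower in FNP too, with 13.5 to 20.7 FPKM in FNP and 29.0 to 55.1 FPKM in MXP (log2 fold change -1.19). Meis2, a homeodomain cofactor needed in cranial crest, fell (9.39 to 16.0 FPKM in FNP and 38.6 to 54.5 FPKM in MXP), and Pknox2 of the same list rose (log2 fold changes -1.68 and 1.79).

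The study set out to compare ciliary genes between embryonic tissues, so 8 lists of genes for building and running cilia were read in this comparison. They were written here and are not the ciliome that the study curated, so their counts do not stand for it. Of their members, 47 lay under the filter and were not tested. Of 187 measured members 0 was called in limma, with 21 at an unadjusted p under 0.05 (11.2%, against 14% of all tested genes) and 3 at an adjusted p under 0.05 with less than a 2-fold change. Log2 fold changes ran from -0.30 to 0.64 with a median of 0.08. The 3 were Ccno, a cyclin-like protein of multiciliated cells, Rsph1, a radial spoke protein, and Myb, a factor of multiciliated precursors, and all were higher in FNP. Ccno averaged 0.615 FPKM in FNP and 0.0230 FPKM in MXP, Rsph1 1.30 FPKM in FNP and 0.510 FPKM in MXP, and Myb 3.54 FPKM in FNP and 2.58 FPKM in MXP. With a pseudocount of 0.1 the count was 3, for Ccno, Rsph1 and Mcin, so the count of 0 holds on a scale that compresses values under 1 FPKM. The lists of intraflagellar transport and BBSome, ciliary motors, transition zone, membrane and trafficking, basal body, and tubulin modification had medians of up to 0.11, and that of multiciliogenesis 0.14. The axonemal dynein list had a median of 0.21 over the 19 members that passed the filter, while 28 lay under it. The axonemal list summed to 51.6 to 61.1 FPKM in FNP and 42.2 to 48.8 FPKM in MXP, without overlap, with 6 of its members at an unadjusted p under 0.05. All lists together summed to 2570 to 2673 FPKM in FNP and 2504 to 2672 FPKM in MXP.

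Of 13 ciliary genes picked here from those the study names, 1 was called. Pam, an enzyme that amidates peptides, had 10.7, 19.0, 12.4, 8.28, 8.77 and 13.3 FPKM in FNP, against 13.1, 49.9, 40.4, 9.599 and 47.7 FPKM in MXP (log2 fold change -1.12 ± 0.32 SE, limma adjusted p = 0.027). MXP replicates 1 and 5 were within the FNP range, and the call was lost when MXP replicate 2, 3 or 6 or FNP replicate 1, 4 or 5 was left out (adjusted p up to 0.13 in limma). Slc9a3r1, a scaffold of the apical membrane, had 10.9 to 16.9 FPKM in FNP and 6.12 to 10.5 FPKM in MXP, which passed the adjusted p (0.00038 in limma) but not the fold threshold (log2 fold change 0.82). Faah, a hydrolase of lipid amides, did likewise at low levels, 0.809 to 1.36 FPKM in FNP and 0.156 to 0.318 FPKM in MXP, and with a pseudocount of 0.1 it was called (log2 fold change of Faah 1.82). Pcm1 and Tulp3, a centriolar satellite protein and a ciliary trafficking adaptor, had log2 fold changes of 0.12 ± 0.11 and -0.04 ± 0.17 (SE), and Tmem107, a transition zone protein, 0.30 ± 0.17. Rab3il1, Ap1m2, Lmo1, Anxa1, Fez1 and Pkp3 lay between -0.32 and 0.40 and did not pass the test.

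Lists on cell state gave few calls. Of 34 measured cell cycle genes and of 24 hypoxia and glycolysis genes 0 was called in limma (3 and 4 at an unadjusted p under 0.05, and 0 and 1 at an adjusted p under 0.05 with less than a 2-fold change), and none of 17 endothelin and Tgf-beta genes was (7 at an unadjusted p under 0.05 and 3 at an adjusted one). Markers of endothelium (15 measured), macrophages (11) and erythroid cells (11) likewise had 0 called. The summed erythroid markers ranged from 8668 to 32006 FPKM in FNP and from 10889 to 35464 FPKM in MXP.

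Members of other lists were called as well. Igfbp7, a secreted binder of insulin-like growth factors, had 3.52 to 10.7 FPKM in FNP and 1.995 to 3.02 FPKM in MXP, without overlap (log2 fold change 1.23). Sox21, a SoxB factor of ectoderm and brain, had 2.24 to 6.81 FPKM in FNP and 0.224 to 1.45 FPKM in MXP (log2 fold change 1.44). Barx2, a relative of Barx1 on the skeletogenic list, went the other way, with 0.303 to 0.931 FPKM in FNP and 1.29 to 4.03 FPKM in MXP (log2 fold change -1.22). The netrin receptor Unc5c, the ephrin receptor Ephb1, the cadherin Cdh10 and the matricellular Ctgf were higher in FNP (log2 fold changes 1.19, 1.07, 1.03 and 1.14), but leaving out FNP replicate 2 ended the call of Unc5c, and leaving out any of 4 or 5 single libraries those of the other genes (adjusted p up to 0.091 in limma).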

How the data were processed

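Tissue pooled from several CD1 embryos was sequenced by the authors as polyadenylated RNA in paired ends. The authors deposited 1 table per library with FPKM per transcript from Cufflinks on mm10, and with the coverage signal of each transcript, which was used here only to describe depth; the aligner behind these tables is not given in the sources used here, while Bowtie2 and DESeq2 are listed, beside mm10, among tools in the submitters' notes. Of 59120 transcripts per table, 65 unreadable ones were left out, and the others were summed to 30723 gene symbols.

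The limma package (version 3.58.1 in R 4.3.3; trend and robust options on) was applied to log2(FPKM + 1) of all 35 libraries, with 1 mean per tissue, and p-values were adjusted by Benjamini-Hochberg over 13934 genes. Figures used matplotlib 3.10.9. On simulated data with the spread of each gene, 0 genes were called with no change. For FNP against MXP 190 of 200 genes with a true log2 change of 1.5 were recovered, and 199 of 200 with one of 2.5. In these runs 2 and 1 unchanged genes were called. The changed genes were drawn from genes well above 1 FPKM, so recovery of low genes was not tested. Libraries were simulated as independent, while same-numbered real libraries deviated together, so the 0 does not cover that. The libraries and the 49 gene lists were chosen with earlier results of these data known. Genes are named as the 12 of largest fold change in each direction without overlap, the called members of lists (the leading 4 of longer ones) and a written set; any other gene named was chosen after its values were seen, and some genes are not reported here, although they stay in the counts over lists and over all genes. Same-numbered FNP and MXP libraries deviated together, with correlations of 0.356 to 0.487 over 5 pairs, although MXP replicate 5 correlated best with FNP replicate 4. The main fit did not pair them, so its SE and p-values take no account of this. The numbers were taken as pairs, on that evidence alone, only in the alternative fit with a replicate block. Nothing says that libraries of a group came from separate litters, so p-values measure the spread between these pools. Alternatives changed the pseudocount, filter, scaling, libraries, block and test.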

Additional observations from a re-analysis of the deposited data

Results flagged for a closer look

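In 8 of 276 groups of libraries, 1 library lay far from the others of its tissue. Groups whose libraries all lay under 1 FPKM are in the 276 but could not be flagged. The share is therefore not set against the rate of about 1 in 20 that chance gives. Of the 8 flags, 3 were in MXP replicate 5 and 3 in MXP replicate 1.

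MXP replicate 5 was highest in genes of the brain. Otx2 had 2.49 FPKM there, against 0.0258 to 0.246 FPKM in the other MXP libraries, and Zic1 had 3.45 FPKM, against 0.0188 to 0.23 FPKM. The same library was lowest in Tubb3, with 24.2 FPKM against 40.9 to 48.5 FPKM.

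MXP replicate 1 was highest in neuronal factors, with 3.35 FPKM of Nhlh1 against 0.0462 to 0.402 FPKM and 2.11 FPKM of Neurog1 against at most 0.32 FPKM. It was lowest in Prrx1, with 143 FPKM against 207 to 234 FPKM. MXP replicate 2 was highest in Meis2, with 54.5 FPKM against 38.6 to 42.5 FPKM, and FNP replicate 2 was lowest in Rab3il1, with 12.7 FPKM against 15.5 to 16.96 FPKM.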

How the results depend on the processing

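No called gene of the text changed direction under any of the alternatives run. Of 112 called genes of the text, 83 kept the call with each library left out in turn and 29 lost it at least once; leaving out 1 library gave 169 to 226 higher and 86 to 128 lower genes. With the replicate block, the numbers used as pairs, 239 and 101 genes were called; Krt15, Axin2 and Col17a1 lost the call and Crabp1 gained it, and no other call of the named genes changed. With a pseudocount of 0.1, 430 genes were higher and 149 lower, with 1 Hedgehog gene and 3 ciliary genes called. Of the 112 calls, that pseudocount ended 19, those of Alx1, Snai2, Sostdc1, Wnt9b, Krt14, Foxf1, Tbx22 and Col6a3 among them, and Faah, Ccno and Rsph1 gained one. Calls were also ended for 5 genes with no filter on low values, 7 with quantile normalization, 13 with rescaling without short transcripts, 8 with the 11 libraries alone (Cdh10, Col6a2, Krt14, Krt15, Pam, Runx2, Zic1 and Col17a1), 8 with the 17 facial libraries alone, 30 in replicates 1 to 3, 74 in replicates 4 to 6, 49 against a fold of 1.5, 23 without FNP replicates 4 and 5, 18 without MXP replicate 5 as well and 8 without MXP replicates 1 and 5. Testing against a fold of 1.5 left 97 and 53 genes, 2 frontonasal factors, 3 Wnt ligands and 3 Wnt receptors, modulators and targets. Replicates 1 to 3 alone left 3 frontonasal factors and 3 Wnt receptors, modulators and targets. Replicates 4 to 6 alone left 71 and 37 genes, 1 frontonasal factor, 8 placode, 6 olfactory neuron, 4 arch and 2 Iroquois genes, 2 Wnt ligands and 2 Wnt receptors, modulators and targets, with fewer samples in the fit. Without FNP replicates 4 and 5, 3 Wnt ligands and 3 Wnt receptors, modulators and targets were lower, as were 3 of the last without MXP replicate 5 as well, and 9 without MXP replicates 1 and 5; leaving out 1 library gave 3 to 6. Where no cause is shown by fewer samples, the cause was not tested.

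Genes that were not called changed sign as follows. Without MXP replicates 1 and 5 the log2 fold change of Anxa1 was -0.14 and that of Gli1 -0.41. The log2 fold change of Gli1 was also -0.037 with quantile normalization, -0.00401 in replicates 4 to 6 alone and -0.036 without FNP replicates 4 and 5 and MXP replicate 5. The log2 fold change of Lmo1 was -0.28 in replicates 1 to 3 alone, -0.20 without FNP replicates 4 and 5 and -0.15 without MXP replicate 5 as well. The log2 fold change of Shh was -0.041 without FNP replicates 4 and 5, and the log2 fold change of Tulp3 was 0.033 with the replicate block. With 1 library left out, the log2 fold change of Anxa1 ranged from -0.039 to 0.39, that of Gli1 from -0.16 to 0.26, that of Lmo1 from -0.043 to 0.38 and that of Pitx1 from -0.075 to 0.46.

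The deposited values hold no counts, so depth limits low genes to an unknown extent, and values under 1 FPKM are compressed by the pseudocount.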

Other observations

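Among genes outside the comparisons above, Dlx1as, the noncoding gene at Dlx1, moved with it: it had 0.559 to 6.07 FPKM in FNP, highest in FNP replicates 4 and 5, and 9.02 to 15.2 FPKM in MXP (log2 fold change -2.36, limma adjusted p = 0.0040), and since the use of strand in the counting is not given in the sources used here, reads of a gene and its antisense partner cannot be told apart. Mir762 had 0 FPKM in all FNP libraries and 6268, 460.6, 0, 501.02 and 1140 FPKM in MXP, so its libraries overlapped at 0; it is a short transcript whose level spread over the whole range within 1 tissue. Of the 104 genes lower in FNP, 3 had no transcript of at least 200 bases, against 0 of the 213 higher ones.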
